A study of Mus musculus with 6 samples.

Results

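Il9 and 9 genes that have been tied to its expression or to Th9 cells, the helper T cells that make IL-9, were examined in T cells lacking Cul5. They are the transcription factor genes Irf4, Irf8, Batf, Batf3, Etv5, Pparg, Spi1 and Erg, together with Il17rb, which encodes a subunit of the receptor for IL-25. The 10 genes were chosen by name, with earlier results of these data known. Of these, 8 were found among the 11242 entries of the study's gene-level table. Pparg and Spi1 were found only in the summed transcripts, in which 22400 genes had a count. Levels and tests of all 10 genes use the summed transcripts, except where the gene-level table is named.

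Naive CD4+ T cells from the spleen of C57BL/6 mice were cultured for 48 h under Th9 conditions. The study's general methods for isolating cells name lymph nodes as a source beside the spleen. Poly-A RNA of the cultured cells was sequenced in 3 samples labelled WT and 3 Cul5 cKO samples. The Cul5 cKO samples came from Cul5fl/flCD4-Cre mice, in which Cre under the Cd4 promoter deletes floxed Cul5 in all T cells, CD8 T cells included, from the thymus onward, and the study's controls were Cul5fl/fl littermates without Cre. All 6 cultures were stimulated with plate-bound anti-CD3 (2 µg/ml) and anti-CD28 (1 µg/ml), with IFN-γ blocked by antibody (10 µg/ml) and with TGF-β (2.5 ng/ml) and IL-4 (20 ng/ml) added. The mice were 8 to 10 weeks old, and all samples belonged to a single experiment. Neither the labels nor the methods say whether the samples of a genotype came from separate animals or cultures, so the p-values measure the spread between these samples, which may be technical.

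IL-9 is a cytokine of allergic inflammation that acts on mast cells, airway epithelium and other T cells. Naive CD4+ T cells turn on Il9 when IL-4, acting through STAT6, and TGF-β are given together with stimulation of the T cell receptor. BATF, a basic leucine zipper protein, binds AP-1 sites with a JUN partner and, beside them, with IRF4 or IRF8, and PU.1 (the product of Spi1) and ETV5 belong to the ETS family of factors that act at the Il9 locus.

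Il9 lies on the minus strand of chromosome 13 (GRCm38, chr13:56479277-56482246) and has 1 annotated transcript of 536 bases in 5 exons. The 250 bases before its RefSeq start are shown because they hold letters of the kind that STAT6 and the BATF and JUN pair recognise, and those before Il17rb are shown as the other window among the 10 genes with an AP-1 match. The sequences are from RefSeq (GRCm38.p6), at chr13:56482258-56482507 for Il9 and chr14:30008897-30009146 for Il17rb, and read 5′ to 3′ on the gene's own minus strand. Capitals mark the matches, which are TTCNNNNGAA (the STAT form with a spacer of 4) and then TGANTCA (AP-1) in Il9, and TGANTCA in Il17rb.
Il9: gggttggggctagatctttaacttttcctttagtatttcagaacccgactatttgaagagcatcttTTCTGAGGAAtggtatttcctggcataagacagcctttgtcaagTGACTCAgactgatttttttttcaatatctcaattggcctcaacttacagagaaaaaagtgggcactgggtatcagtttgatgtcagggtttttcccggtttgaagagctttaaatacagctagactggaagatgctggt
Il17rb: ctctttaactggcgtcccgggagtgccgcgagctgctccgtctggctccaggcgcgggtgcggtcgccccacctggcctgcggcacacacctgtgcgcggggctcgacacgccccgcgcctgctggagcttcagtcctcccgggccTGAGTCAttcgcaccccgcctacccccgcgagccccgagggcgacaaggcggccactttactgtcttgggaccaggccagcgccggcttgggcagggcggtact
In Il9, the STAT form lay 184 to 175 bases and the AP-1 form 140 to 134 bases before the start, and in Il17rb the AP-1 form lay 104 to 98 bases before it. Searched on both strands, TTCNNNNGAA was found in 5.85% and TGANTCA in 6.75% of 32851 windows of the same length. For 9 of the 10 genes at least 1 window was held, 15 in all, and Spi1 had no entry. TTCNNNGAA, found in 7.02% of all windows, matched in windows of Irf8 and Batf3. GAAANNGAAA (an interferon response element, 2.98% of windows), GAGGAAGT (a PU.1 form, 2.44%) and the composite forms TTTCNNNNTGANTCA (in 32 windows) and GAAATGANTCA (in 33 windows) matched in none of the 15 windows. The windows of Irf4, Batf, Etv5, Pparg and Erg held none of these 7 forms. A match is a run of letters and not a measured binding site, and no match says only that the letters are not in the window.

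Libraries held between 23111689 and 23454552 estimated counts, except WT replicate 3 with 3944803, where 3 counts correspond to 0.759 CPM (counts scaled to a common library size by edgeR's TMM method) against 0.128 to 0.133 CPM elsewhere. Cul5 was at 64.4 to 69.3 CPM in WT and at 10.6 to 14.2 CPM in Cul5 cKO samples. All 8 T cell markers were above 3 counts in every sample, and their sum was 1695 to 1898 CPM in WT and 1521 to 1642 CPM in Cul5 cKO. Replicate 1 of both genotypes stood apart from replicates 2 and 3 in several of the genes below. In Cul5 cKO replicate 2, 6 mast cell and basophil markers summed to 42.6 CPM against 1.28 to 3.33 CPM elsewhere, and in Cul5 cKO replicate 3, 7 B cell markers summed to 54.2 CPM against 6.86 to 20.3 CPM. Floors and counts cover counting error only.

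Il9 was the 1 gene of the 10 that passed the test between genotypes, and it rose. Of the other 8 genes that passed the filter on low counts, Batf, Batf3 and Etv5 did not pass the test. In CPM they were higher in every Cul5 cKO sample than in every WT sample. For Etv5 this did not hold on other scales given below. Irf4, Irf8, Pparg and Erg overlapped between the genotypes, and Il17rb lay lower on average, also with overlap. In cultures measured in bulk, a different share of IL-9-producing cells and a different amount of RNA per cell cannot be told apart.

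Il9 was at 355, 308 and 298 CPM in WT replicates 1, 2 and 3 and at 729, 804 and 1021 CPM in Cul5 cKO replicates 1, 2 and 3. Every Cul5 cKO sample lay above every WT sample, and the lowest of them was over the highest WT value by more than the whole WT range. The difference was 1.41 ± 0.134 on the log2 scale (SE), with a Benjamini-Hochberg adjusted p of 0.0112 among the 12925 genes tested by edgeR's quasi-likelihood method. Set against the sample of the same replicate number, the ratio of Cul5 cKO to WT in CPM was 2.05, 2.61 and 3.43. The replicate numbers were not taken to pair the samples. Il9 mRNA made up 0.0301% to 0.0362% of all counts in WT and 0.0724% to 0.0989% in Cul5 cKO. Ranked by TPM (the share of all transcripts, a level corrected for length), Il9 was gene 116, 122 and 141 from the top in WT replicates 1, 2 and 3 and gene 40, 36 and 25 in the Cul5 cKO replicates.

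The Il9 difference was also computed without the libraries that stood apart. Without Cul5 cKO replicate 2, which carried the mast cell and basophil markers and had the middle Il9 value of its group, it was 1.45 with an adjusted p of 0.0355. Without Cul5 cKO replicate 3, which had the highest Il9 value, it was 1.26 with an adjusted p of 0.0436. In replicates 2 and 3 alone it was 1.59 with an adjusted p of 0.00682. Il9 was thus called in each of these fits. The call was lost without WT replicate 2, at 1.38 with an adjusted p of 0.0771, and without WT replicate 3, at 1.36 with an adjusted p of 0.0816, and in both fits 2 genes of the whole table were called in place of 133 (all by edgeR).

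**Figure D1:**
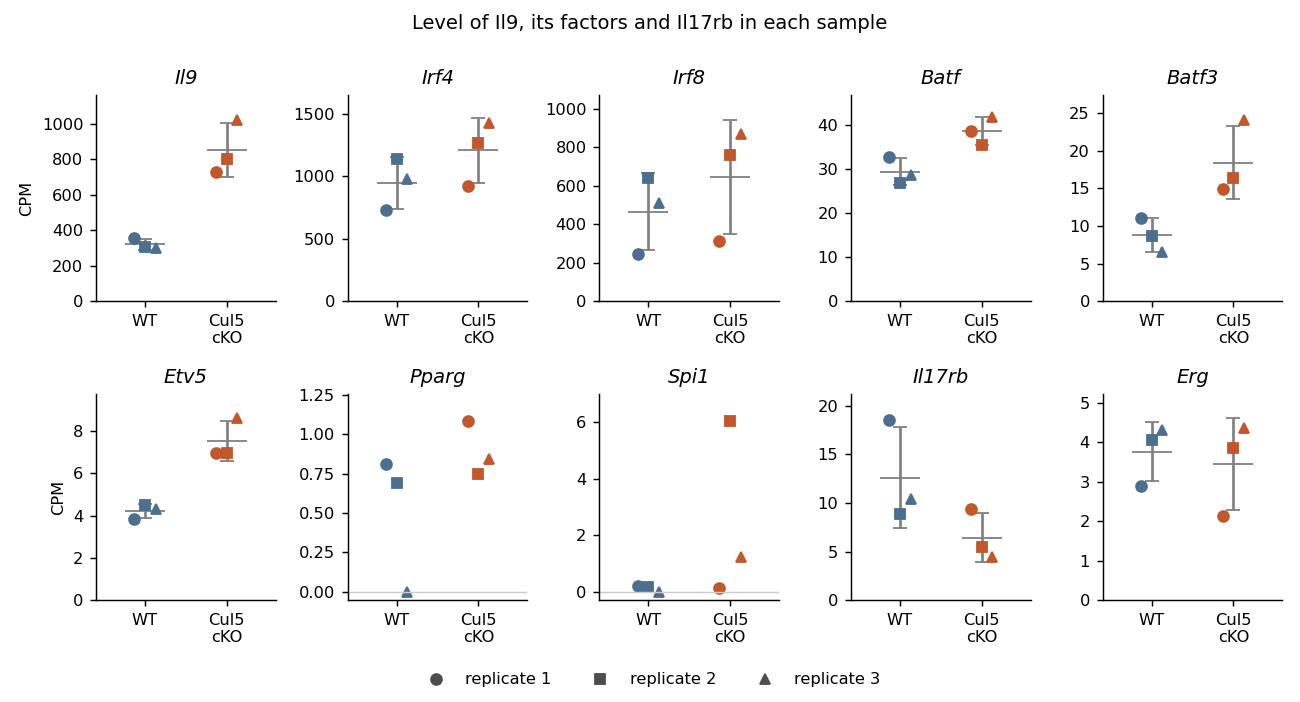
Level of each of the 10 genes in CPM (linear axes, a separate one for each gene) in the 3 WT and 3 Cul5 cKO samples, with 1 marker shape for each replicate number and bars for the mean and SD (n = 3), left out for Pparg and Spi1 because WT replicate 3 is at 0. Il9 sits at 298 to 355 CPM in WT and 729 to 1021 CPM in Cul5 cKO, replicate 1 is the lowest for Irf4 and Irf8 in both genotypes, and Spi1 is at 6.05 CPM in Cul5 cKO replicate 2 alone.

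Counted over the 10 genes, 9 were tested, since Spi1 did not pass edgeR's filter, and 1 of the 9 was called at an adjusted p under 0.05, beside 1.03% of all genes tested, or 0.611% in the direction of Il9. At an unadjusted p under 0.05, 4 were higher (Il9, Batf, Batf3 and Etv5) and 1 was lower (Il17rb), beside 21.3% of all genes, 10.9% higher and 10.4% lower. For the same 4 higher genes all Cul5 cKO samples were above all WT samples in CPM, which held for 14.0% of all genes tested. The 10 genes were chosen with earlier results of these data known, so these counts are not separate support. The study itself names Il9 and Batf3 among the Th9 genes that differed between these genotypes. The median difference of the 9 genes was 0.48 on the log2 scale, with 7 higher and 2 lower. Under the other settings Il9 alone was called with other scalings and filters, limma on the gene-level table or TPM, and thinned libraries, while the term for replicate 1 called 7 of the 10 (13.1% of all genes). Another 4 fits each called 4 of the 10. DESeq2 called Il9, Batf3, Etv5 and Spi1, beside 3.36% of the 22400 genes with a count. That share also counts genes to which DESeq2 gave no adjusted p, so it is lower than among the genes adjusted. Voom with sample quality weights called Il9, Batf, Batf3 and Etv5 (9.74% of all genes tested). The fit with the replicate number as a block called Il9, Batf, Etv5 and Il17rb (6.56%). Replicates 2 and 3 alone gave Il9, Batf, Batf3 and Il17rb (8.83%). In replicates 2 and 3 alone 8 of the 10 were at an unadjusted p under 0.05, beside 31.2% of all genes.

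**Figure D2:**
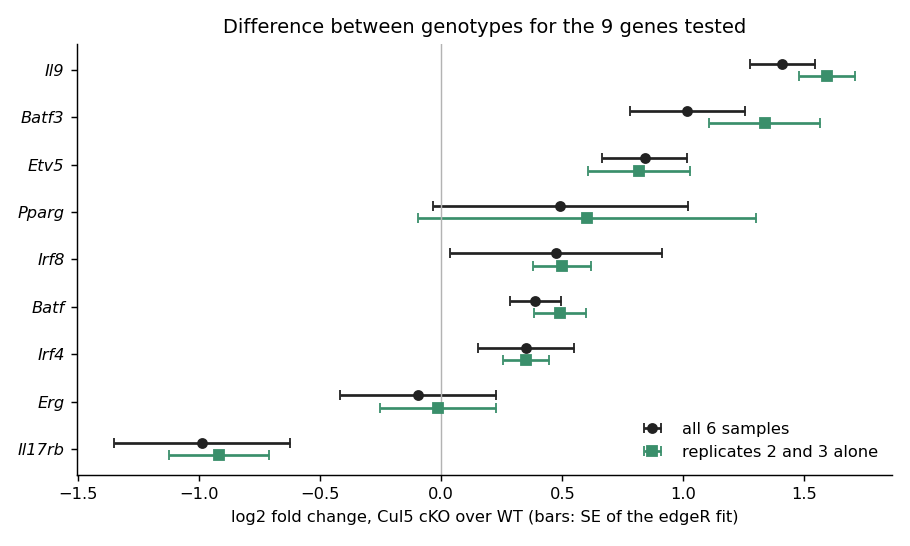
Difference between Cul5 cKO and WT on the log2 scale for the 9 genes tested, with bars for the SE derived from the F statistic of edgeR's test, from all 6 samples and from replicates 2 and 3 of each genotype alone, n = 3 and n = 2 in each group. Il9 is at 1.41 from all samples and 1.59 from replicates 2 and 3, and Erg is at -0.10 and -0.01.

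The AP-1 factor Batf (chr12:85686669-85709087, plus strand) was at 32.7, 26.8 and 28.6 CPM in WT replicates 1, 2 and 3 and at 38.6, 35.4 and 41.7 CPM in the Cul5 cKO replicates. The groups did not overlap, but WT replicate 1 came close to Cul5 cKO replicate 2. The difference was 0.39 ± 0.105 (log2, SE) with an adjusted p of 0.112 by edgeR. It was 0.49 in replicates 2 and 3 alone, where the adjusted p was 0.0451.

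Batf3 encodes a shorter relative of BATF, known for its need in cross-presenting dendritic cells (chr1:191097847-191108945, plus strand). It was at 11.1, 8.65 and 6.58 CPM in WT and at 14.9, 16.3 and 24.1 CPM in Cul5 cKO replicates 1, 2 and 3. The groups did not overlap, and Cul5 cKO replicate 3 was the highest, as it was for Il9. The difference, the largest of the factor genes tested, was 1.02 ± 0.237 (log2, SE) with an adjusted p of 0.0935 by edgeR. In replicates 2 and 3 alone it was 1.34 with an adjusted p of 0.0304, and without Cul5 cKO replicate 3 it was 0.79 with an adjusted p of 0.279. Dendritic cell markers, 7 in all, summed to 1.75 to 2.25 CPM in WT and to 1.82, 4.78 and 2.93 CPM in the Cul5 cKO replicates, with Cd209a at 0 and Clec9a at no more than 2 counts in every sample. Among the others, Itgax was at 0.256, 0.519 and 0.759 CPM in WT replicates 1, 2 and 3. In Cul5 cKO it was at 1.35, 1.80 and 0.711 CPM, with overlap. Xcr1, at no more than 8 counts in any sample, was at 0.128, 0.346 and 0.253 CPM in WT. In Cul5 cKO it was at 0.087, 0.175 and 0.089 CPM. Flt3 had at most 1 count in WT and 0, 29 and 5 in Cul5 cKO. Zbtb46 was at 1.11, 1.17 and 0.759 CPM in WT and at 0.347, 1.14 and 1.73 CPM in Cul5 cKO. The part of these cells in the Batf3 difference was not tested.

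The interferon regulatory factor gene Irf4 is induced by T cell receptor signals (chr13:30749226-30766976, plus strand). It was at 729, 1138 and 978 CPM in WT and at 926, 1265 and 1429 CPM in Cul5 cKO replicates 1, 2 and 3. The genotypes overlapped, and in both of them replicate 1 was the lowest, at 0.689 of the mean of replicates 2 and 3 in WT and 0.687 in Cul5 cKO. The difference was 0.35 ± 0.198 (log2, SE, adjusted p = 0.357 by edgeR).

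Irf8, the related factor gene best known for the development of monocytes and dendritic cells, split the replicates further (chr8:120736358-120756694, plus strand). It was at 246, 640 and 509 CPM in WT and at 311, 758 and 867 CPM in Cul5 cKO replicates 1, 2 and 3. Replicate 1 was at 0.429 of the mean of replicates 2 and 3 in WT and at 0.383 in Cul5 cKO, so the gap between replicates was wider than that between genotypes. The difference was 0.48 ± 0.437 (log2, SE, adjusted p = 0.570 by edgeR). With a term for replicate 1 in edgeR's fit, which called 13.1% of all genes, Irf4 was at 0.35 with an adjusted p of 0.0264 and Irf8 at 0.44 with an adjusted p of 0.0275. In replicates 2 and 3 alone the genotypes did not overlap for Irf8, and the adjusted p was 0.0551 at a difference of 0.50. Irf8 shares sequence on its strand with Gm20388, and how reads were split between them was not tested.

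**Figure D3:**
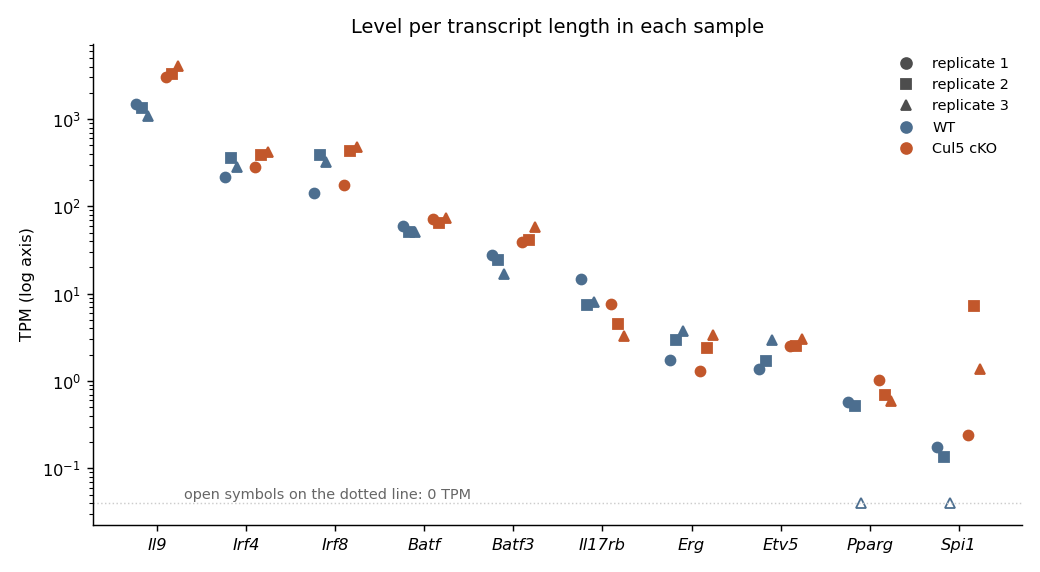
Levels of the 10 genes in TPM (log axis), a scale corrected for transcript length, for each WT and Cul5 cKO sample, with values of 0 drawn as open symbols on a dotted line. Il9 is above every other gene of the set in all 6 samples, at 1098 to 1480 TPM in WT and 3020 to 4076 TPM in Cul5 cKO, and Irf4 and Irf8 come next with ranges that overlap.

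Per unit of length, Il9 was the most abundant of the 10 genes in both genotypes, at 1304 ± 193 TPM in WT and 3472 ± 544 TPM in Cul5 cKO (SD, n = 3). Irf4 followed at 288 ± 70.3 TPM in WT and 366 TPM in Cul5 cKO and Irf8 at 283 ± 126 TPM and 363 TPM, and those neighbours overlapped in both genotypes. Below them came Batf at 54.2 TPM in WT and 69.8 TPM in Cul5 cKO, Batf3 at 22.9 and 46.1 TPM, and Il17rb at 10.1 and 5.18 TPM, and in WT none of these 3 overlapped its neighbour. The mean levels of Erg, Etv5, Pparg and Spi1 were at or under 2.95 TPM in both genotypes. Erg and Etv5 overlapped each other in both genotypes, as did Pparg and Spi1 in WT, and in Cul5 cKO the range of Spi1 also overlapped those of Il17rb and Etv5.

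Measured within each sample as a log2 ratio in CPM, Il9 was 1.05 higher relative to Irf4, 1.01 higher relative to Batf, 0.58 higher relative to Etv5 and 1.56 higher relative to Erg in Cul5 cKO than in WT, with no overlap between the genotypes. Relative to Irf8 the ratio was 0.95 higher and relative to Batf3 0.34 higher, both with overlap. None of the 7 ratios computed could reach significance, since the exact two-sided permutation test of 3 samples against 3 cannot give a p below 0.1, which is 0.175 after Benjamini-Hochberg adjustment for these 4 ratios. The difference was smallest for Batf3 among the 6 ratios given, and the ratio to Pparg is not given because Pparg was at 0 in WT replicate 3. The ratios combine the Il9 difference with that of each factor gene, so they are not separate support for either.

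The ETS factor gene Etv5 (chr16:22381309-22439719, minus strand) was at 3.84, 4.50 and 4.30 CPM in WT and at 6.99, 6.97 and 8.63 CPM in Cul5 cKO replicates 1, 2 and 3. The groups did not overlap in CPM. They overlapped in TPM, where WT replicate 3 was at 2.94 and Cul5 cKO replicates 1 and 2 at 2.55 and 2.51. In the study's gene-level log2 CPM, WT replicate 3 was at 3.04, again above Cul5 cKO replicates 1 and 2, at 2.82 and 2.81. The difference in the main fit was 0.84 ± 0.175 (log2, SE) with an adjusted p of 0.0736 by edgeR. It was smaller on other scales, at 0.58 for counts scaled from TPM, 0.51 in the study's gene-level log2 CPM table and 0.33 on log2(TPM + 1). The adjusted p-values were 0.371 by edgeR for the first and 0.429 and 0.564 by limma for the others. In WT replicate 3, whose sum for Etv5 was 17 counts, none was assigned to the transcript Etv5-201 of 3975 bases, 15.6 were assigned to another coding transcript of 3773 bases and the rest to a pair of short ones of 433 and 489 bases, while the other 5 samples had at least 99.6% on Etv5-201. The part of that assignment in the smaller differences was not tested.

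Spi1, which encodes PU.1, a master factor of myeloid and B cells, had 5, 4 and 0 counts in WT and 3, 138 and 28 counts in Cul5 cKO replicates 1, 2 and 3 (chr2:91082390-91115756, plus strand). In CPM it was at 0.213, 0.173 and 0 in WT and at 0.130, 6.05 and 1.24 in Cul5 cKO. Only Cul5 cKO replicates 2 and 3 stood above the range of the other samples, and Cul5 cKO replicate 1 was at the floor of 3 counts. edgeR's filter removed it from the fit used for the other genes. DESeq2 called it at a log2 difference of 3.97 with an adjusted p of 0.0206, while edgeR did not call it with no filter beyond 1 count, at 3.82 with an adjusted p of 0.155, or in replicates 2 and 3 alone, at 4.62 with an adjusted p of 0.0525. Neither of the limma fits on TPM called it, with adjusted p-values of 0.328 and 0.410.

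The 2 libraries with the most Spi1 counts were those with markers of other cells. In Cul5 cKO replicate 2, 9 macrophage and monocyte markers summed to 22.7 CPM against 5.91 to 10.99 CPM in the other 5 samples. The markers did not all follow the sum. Itgam was lower there than in WT replicates 2 and 3, and Cd14 and Mrc1 had at most 3 counts in every sample. Adgre1 and Cd68 were highest in Cul5 cKO replicate 2, at 2.98 and 3.42 CPM against at most 2.09 and 3.29 CPM elsewhere. Lyz2, Csf1r, Cebpa and Fcgr3 had 64, 60, 83 and 103 counts there, against at most 6, 4, 5 and 10 elsewhere. Cpa3 and Mcpt8, protease genes of mast cells and basophils, had 315 and 225 counts there, against at most 7 and 8 elsewhere. In Cul5 cKO replicate 3 it was the B cell sum that stood out, at 54.2 CPM. The part of these cells in the Spi1 counts was not tested.

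**Figure D4:**
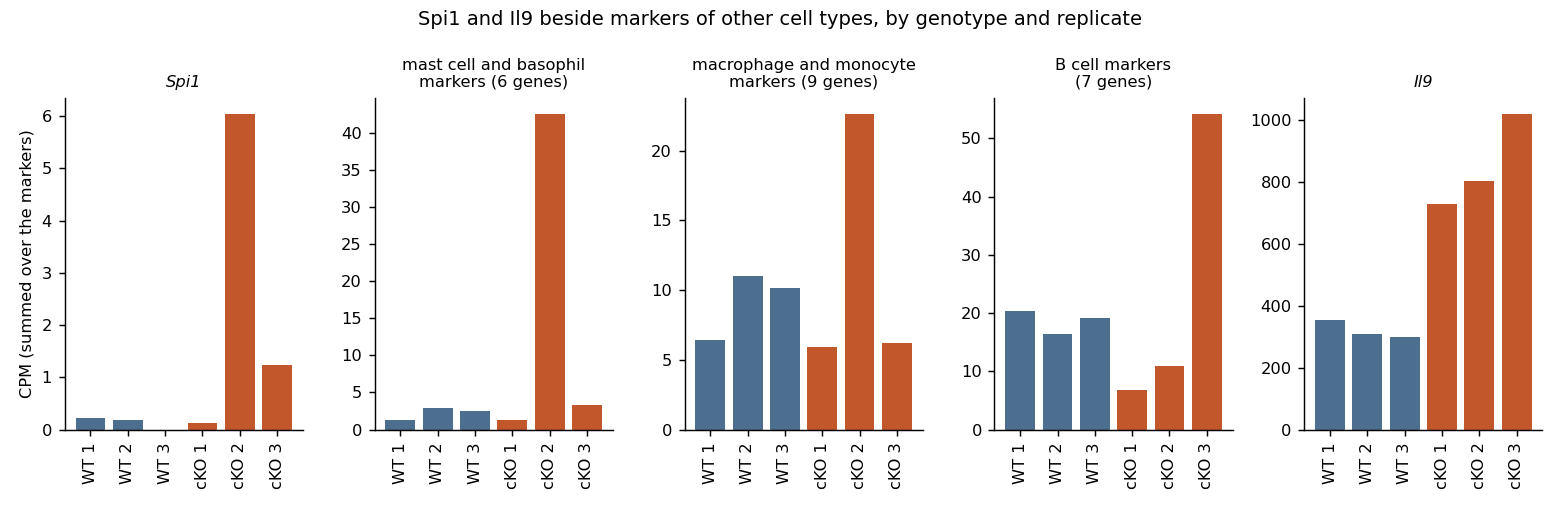
Bars for the CPM of Spi1 and Il9 beside the summed CPM of mast cell and basophil, macrophage and monocyte, and B cell markers in each of the 6 samples (linear axes from 0). Cul5 cKO replicate 2 has the highest Spi1 value, 6.05 CPM, and the highest sums for mast cells and basophils, 42.6 CPM, and for macrophages and monocytes, 22.7 CPM, and Cul5 cKO replicate 3 has the highest B cell sum, 54.2 CPM, and the highest Il9 value, 1021 CPM.

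The third ETS gene, Erg, is known for its role in endothelium and blood stem cells (chr16:95359169-95586593, minus strand). It was at 2.90, 4.07 and 4.30 CPM in WT and at 2.13, 3.86 and 4.36 CPM in Cul5 cKO replicates 1, 2 and 3. The groups overlapped almost fully, with replicate 1 lowest in each. The difference was -0.10 ± 0.321 (log2, SE, adjusted p = 0.896 by edgeR), and it was 0.16 without Cul5 cKO replicate 1. The endothelial genes Cdh5 and Kdr had at most 2 counts in any sample, and Pecam1 and Egfl7 made up most of the sum of 6 endothelial markers, 25.1 to 38.2 CPM in WT and 21.5 to 31.2 CPM in Cul5 cKO.

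The nuclear receptor gene Pparg, known for fat cell differentiation and lipid uptake, was near the limit of detection (chr6:115360951-115490399, plus strand). It had 19, 16 and 0 counts in WT and 25, 17 and 19 counts in Cul5 cKO replicates 1, 2 and 3, or 0.811, 0.692 and 0 CPM against 1.09, 0.745 and 0.845 CPM. The 0 in WT replicate 3 allows a level of up to 0.759 CPM, which is above WT replicate 2, so that sample does not show a lower level. The difference was 0.49 ± 0.527 (log2, SE, adjusted p = 0.630 by edgeR), and a difference between genotypes was not detectable at this depth.

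Il17rb, the receptor subunit gene, was at 18.5, 8.87 and 10.4 CPM in WT and at 9.34, 5.52 and 4.49 CPM in Cul5 cKO replicates 1, 2 and 3 (chr14:29996135-30008896, minus strand). Replicate 1 was the highest in both genotypes, at 1.93 times the mean of replicates 2 and 3 in WT and 1.87 times in Cul5 cKO, opposite to Irf4 and Irf8. Within each replicate number the Cul5 cKO value was the lower one, although the numbers were not taken to pair the samples. The overlap came from Cul5 cKO replicate 1 lying above WT replicate 2. The difference was -0.99 ± 0.362 (log2, SE, adjusted p = 0.184 by edgeR), and in replicates 2 and 3 alone it was -0.92 with an adjusted p of 0.0481. Actr8, which overlaps Il17rb on the opposite strand, was at -0.06 with an adjusted p of 0.718, and without a stated strand setting reads from their shared stretch cannot be told apart.

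Transcript use was compared in the 7 of these genes with several transcripts and at least 10 counts in every sample, as the share of the counts on the most abundant transcript. The lowest adjusted p was 0.7 over the 7 genes by the exact permutation test. With 3 samples against 3 that test cannot give a p below 0.1, so no share could have been called. Only the share of Irf8-201 was without overlap between the genotypes, at that smallest p. Irf4-201 and Irf4-202, of 4764 and 4761 bases, are nearly the same length, and Irf4-201 held 57.3% to 64.5% of the Irf4 counts in WT and 62.3% to 65.6% in Cul5 cKO. Irf8-201 held 86.2% to 95.3% in WT and 95.9% to 96.4% in Cul5 cKO, with the lowest value in the shallow WT replicate 3. Il17rb-201 held 43.5% to 86.8% in WT and 39.8% to 47.9% in Cul5 cKO.

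The genes whose log2 CPM followed Il9 most closely over the 6 samples, among 8693 genes with a mean of at least 10 CPM, were G6pdx, Eif4ebp1, Tomm5, Polr2l and Cct7, with Pearson's r from 0.992 to 0.995. G6pdx encodes the first enzyme of the pentose phosphate pathway, Eif4ebp1 an inhibitor of cap-dependent translation, Tomm5 a part of the mitochondrial import pore, Polr2l a subunit of RNA polymerases and Cct7 a subunit of a cytosolic chaperonin. G6pdx and Eif4ebp1 passed the test, at 0.35 and 0.54 on the log2 scale with adjusted p-values of 0.0493 and 0.0306 by edgeR. Of the factor genes, Batf3 came at rank 245 with an r of 0.952 and Batf at rank 391 with 0.929, while Irf4 was at rank 2586 with 0.583 and Irf8 at rank 3425 with 0.382. The samples share 2 genotypes, so these coefficients hold the genotype difference and are a description of 6 samples.

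Other genes of the pathway were counted in 6 lists, partners of BATF and IRF factors, the ETS family, inducers of Il9, restrainers of Il9 or of the Th9 fate, PPAR partners and targets, and the receptors for IL-9 and IL-25. Of their 98 genes 89 were tested, and 0 were called by edgeR, beside 1.03% of all genes. At an unadjusted p under 0.05, 12 were higher and 13 lower, or 28.1% beside 21.3% of all genes, and the median difference was 0.005 (log2), beside -0.01 for all genes tested. DESeq2 called 13 of 96 list genes with a count, 8 higher and 5 lower, beside 3.36% of all 22400 genes with a count. That share also counts genes to which DESeq2 gave no adjusted p. Voom with sample quality weights called 14 of 89, 7 higher and 7 lower, beside 9.74% of all genes. In replicates 2 and 3 alone, 10 were called higher and 9 lower by edgeR, beside 8.83% of all genes. The genotypes did not overlap for 27.5% of all genes tested, 14.0% with Cul5 cKO above and 13.5% with it below. The lists, too, were chosen with earlier results of these data known. The genes named below were picked by p, so their lack of overlap is not separate support.

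Among the 15 partners of BATF and IRF tested, 1 was higher and 4 were lower at an unadjusted p under 0.05, with a median of -0.05 (log2). Fosl2, which encodes an AP-1 subunit, was at 13.1, 23.8 and 21.3 CPM in WT and at 25.4, 47.9 and 45.8 CPM in Cul5 cKO, a difference of 1.05 with an adjusted p of 0.123 by edgeR. The genotypes did not overlap, and replicate 1 was again the lowest of each.

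Of 14 ETS family genes tested, 1 was higher and 3 were lower at an unadjusted p under 0.05, with a median of -0.08. Ets1, known for T cell quiescence and survival, was at 779, 869 and 887 CPM in WT and at 664, 666 and 637 CPM in Cul5 cKO. It did not overlap, at a difference of -0.37 with an adjusted p of 0.0547 by edgeR. Etv6, a repressor, was at 0.41 with an adjusted p of 0.0871, and Elf1 at -0.34 with an adjusted p of 0.117, both without overlap.

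For the 27 inducers of Il9, 6 were higher and 3 were lower at an unadjusted p under 0.05, with a median of 0.07. Hif1a, the oxygen-regulated factor of glycolysis, was at 0.49 with an adjusted p of 0.0724, Tgfbr1, a TGF-β receptor chain, at -0.48 with 0.0914, and Jak3, the kinase of the common gamma chain, at 0.26 with 0.0937 (log2, edgeR). All 3 were without overlap between the genotypes, as were 27.5% of all genes tested.

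The 14 restrainers tested had 2 higher and 2 lower genes at an unadjusted p under 0.05 and a median of 0.12. Runx3, a factor of CD8 and Th1 cells, was at 0.42 with an adjusted p of 0.0687 and Socs3, an inhibitor of cytokine receptors, at 0.43 with 0.162, both without overlap (log2, edgeR). Foxo1, a factor of quiescence, was at -0.16 with 0.230, also without overlap.

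Among 14 PPAR partners and targets tested, 2 were higher and 0 were lower at an unadjusted p under 0.05, with a median of 0.05. Cd36, a fatty acid carrier, was at 0.128, 0.519 and 0.759 CPM in WT and at 0.651, 2.67 and 2.18 CPM in Cul5 cKO, with overlap. Fabp5, a fatty acid binding protein gene, was at 0.23 with an adjusted p of 0.388 by edgeR.

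Of 5 receptor genes tested, 1 was lower at an unadjusted p under 0.05, with a median of -0.30. It was Il9r, the receptor chain specific for IL-9, at 8.07, 3.59 and 4.55 CPM in WT and at 2.13, 1.62 and 1.87 CPM in Cul5 cKO, a difference of -1.55 with an adjusted p of 0.0852 by edgeR. All Cul5 cKO samples were below all WT samples, and WT replicate 1 was the highest, as for Il17rb. Il17rd, of the same receptor family, was at -0.63 with an adjusted p of 0.283, also without overlap. Il1rl1, which encodes the IL-33 receptor of mast cells and type 2 lymphocytes, had 200 counts in Cul5 cKO replicate 2 and at most 30 in the other samples, in the library with the mast cell and basophil markers.

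**Figure D5:**
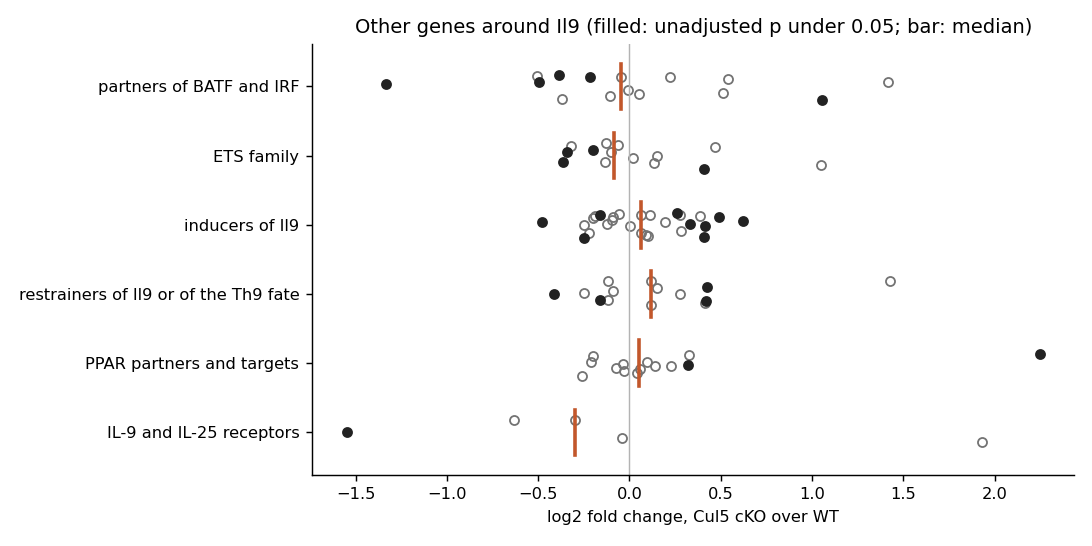
Difference between Cul5 cKO and WT on the log2 scale for each tested gene of the 6 lists, with 1 point a gene, filled at an unadjusted p under 0.05, and a line at the median of each list. The medians lie between -0.30 for the receptors and 0.12 for the restrainers, and no gene of the lists passed an adjusted p under 0.05 by edgeR.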

How the data were processed

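Poly-A RNA of 3 WT and 3 Cul5 cKO samples was sequenced in single-end reads of 50 bases. According to the methods and the submitters' processing notes, the authors used kallisto 0.46.2 on Ensembl's GRCm38 transcripts, followed by normalization in edgeR 3.34.0. The Ensembl release and the strand setting are not given in the sources used here. The authors deposited estimated counts, not normalized, and TPM for 119414 transcripts in each sample, and a table by gene of log2 CPM after TMM normalization. Its columns of fold changes and p-values, the authors' own comparison, were not used.

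Transcripts were summed by gene with GENCODE vM21 (97.7% matched), the sums were rounded, and genotypes were compared in R 4.3.3 with edgeR 4.0.16 (default expression filter, TMM, quasi-likelihood test, no block), Benjamini-Hochberg adjusted over 12925 genes and called at an adjusted p under 0.05. Levels are CPM on TMM-scaled library sizes. The SE of an edgeR difference was derived as its absolute value over the square root of the test's F statistic. The spread between replicates was 16.1% (coefficient of variation). Depth was 3944803 counts in WT replicate 3 and 23111689 to 23454552 elsewhere. The floor of detection was 3 counts. The fit was tested on simulated counts before use.

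The 10 genes and all lists were chosen with earlier results of these data known. The text names the 10 genes, Cul5, at most 3 genes with the lowest p of each list, the 5 genes most correlated with Il9 and markers of other cells, and some genes under this rule are not reported here. Alternatives were DESeq2 1.42.0, limma 3.58.1 on the gene-level table and on log2(TPM + 1) or log2(TPM + 0.1), voom with sample quality weights, other scalings and filters, counts scaled from TPM, thinning to the shallowest library, the replicate block, a term for replicate 1, replicates 2 and 3 alone, and each library left out. Python 3.11.15 was used for tables and motif searches in RefSeq windows.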

Additional observations from a re-analysis of the deposited data

How the results depend on the processing

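Il9 was higher in Cul5 cKO under all 20 alternatives and called in 18 of them, with adjusted p-values from 4.36e-21 to 0.0816. Leaving out each library in turn gave log2 differences of 1.26 to 1.51, with 0 to 1 of the 10 genes called and 2 to 316 genes called in all, and WT replicates 2 and 3 were the libraries without which Il9 lost the call. From 133 genes called, the count went to 753 with DESeq2, 228 with no filter beyond 1 count, 62 with counts scaled from TPM, 42 with limma on the gene-level table, 18 on log2(TPM + 1), 22 on log2(TPM + 0.1), 1688 with a term for replicate 1, 1153 in replicates 2 and 3 alone, 1259 with voom and sample quality weights, and 2753 at an unadjusted p. Of the 10 genes, DESeq2 called 4 (Il9, Batf3, Etv5 and Spi1), voom 4 (Il9, Batf, Batf3 and Etv5), replicates 2 and 3 alone 4 (Il9, Batf, Batf3 and Il17rb), the term for replicate 1 called 7 (all but Pparg, Spi1 and Erg), and an unadjusted p called 5. In replicates 2 and 3 alone 8 of the 10 were at an unadjusted p under 0.05, in place of 5. Of the list genes, 0 were called, against 13 with DESeq2, 14 with voom, 26 with the term, 19 in replicates 2 and 3 alone, 2 each with normalization by library size, 10 counts in every sample, no filter or thinning, and 0 to 6 with libraries left out (6 without WT replicate 1). Erg turned from -0.10 to 0.12 when libraries were thinned to the shallowest and ranged from -0.30 to 0.16 with libraries left out, where it turned without Cul5 cKO replicate 1. The cause of these shifts was not tested.

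With the replicate number as a block, edgeR called 848 genes, 4 of the 10 (Il9, Batf, Etv5 and Il17rb) and 17 list genes. The deviations of samples with the same number correlated at 0.370, 0.206 and 0.0245 for replicates 1, 2 and 3, so the numbers were not taken to pair the samples. WT replicate 3 limits what can be said of Pparg and Spi1, since its 3 counts correspond to 0.759 CPM.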
